A study of Arabidopsis thaliana with 12 samples.

Results

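NdhS and PIFI are nuclear genes of Arabidopsis thaliana whose products act with the plastid NAD(P)H dehydrogenase-like (NDH) complex, and their transcript levels were described in darkness and after 1 h of light. The members are the probes that list exactly 1 gene, that gene being NdhS (AT4G23890) or PIFI (AT3G15840), which gave 2 probes among 692 single-gene probes and 3439 probes in all. Both were taken up because their light and dark values differed, so those differences are given below as a description, with no test. The plants were wild type (Columbia 0, the common laboratory accession). The 6 dark samples came from plants adapted to darkness overnight and the 6 light samples from plants given 1 h of light after such a night. The tissue, the plant age and the light source are not given in the sources used here, and with only these groups light cannot be told apart from time since the end of the night.

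The NDH complex sits in the thylakoid membrane and passes electrons from ferredoxin to plastoquinone. In light it takes part in cyclic electron flow around photosystem I, with which it forms a supercomplex, and in darkness it takes part in chlororespiration, in which plastoquinone is reduced without light and reoxidised by a plastid terminal oxidase. NdhS, also called CRR31, is a subunit on the stromal side that is known for high-affinity binding of ferredoxin. PIFI is named for the post-illumination chlorophyll fluorescence increase, a transient rise after light is switched off that reports NDH-dependent reduction of plastoquinone and is lost in Arabidopsis mutants of the gene.

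Each array gave 1 intensity per probe on a linear scale that ends at 100. Array totals lay between 2943 and 3683, and each array listed 11.7 to 15.7% of its probes at 0. NdhS and PIFI were above 0 in all 12 arrays. Because array medians differed, from 0.204 to 0.289, arrays were quantile normalized, and the result is called the scaled intensity below. Within a group, arrays with consecutive numbers (1 and 2, 3 and 4, 5 and 6) tended to be more alike than others. Across the probes tested, their log2 values correlated at 0.863 to 0.895 in the dark and 0.840 to 0.909 in light, against medians of 0.844 and 0.838 for the other array pairs of a group, with overlapping ranges. Nothing in the labels says that samples are separate plants. Each SD over 6 arrays (n = 6) may therefore be partly technical, and SEs and p-values from 12 arrays are too small if consecutive arrays are repeats.

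NdhS was lower after 1 h of light. Its scaled intensity in the dark was 9.18, 8.99, 10.4, 10.5, 11.1 and 9.95 in replicates 1 to 6. In light it was 5.14, 5.06, 5.24, 5.14, 5.14 and 4.31. All 6 light arrays lay below all 6 dark arrays, and light replicate 6 was the lowest of its group. The mean was 10.02 ± 0.82 (SD, n = 6) in the dark and 5.01 ± 0.35 (SD, n = 6) in light. On the log2 scale light minus dark was -1.0005 (SE 0.090), which is 2.001-fold lower in light, so that NdhS lay almost exactly at a 2-fold change. Without light replicate 6 the log2 difference was -0.95.

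PIFI was higher after 1 h of light. Its scaled intensity in the dark was 0.511, 0.503, 0.384, 0.401, 0.349 and 0.357 in replicates 1 to 6. In light it was 0.727, 0.990, 0.883, 0.823, 0.821 and 0.944. All 6 light arrays lay above all 6 dark arrays, and light replicate 1 came nearest to the dark values. The mean was 0.418 ± 0.072 (SD, n = 6) in the dark and 0.865 ± 0.095 (SD, n = 6) in light. On the log2 scale light minus dark was 1.06 (SE 0.13), which is 2.08-fold higher in light.

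**Figure D1:**
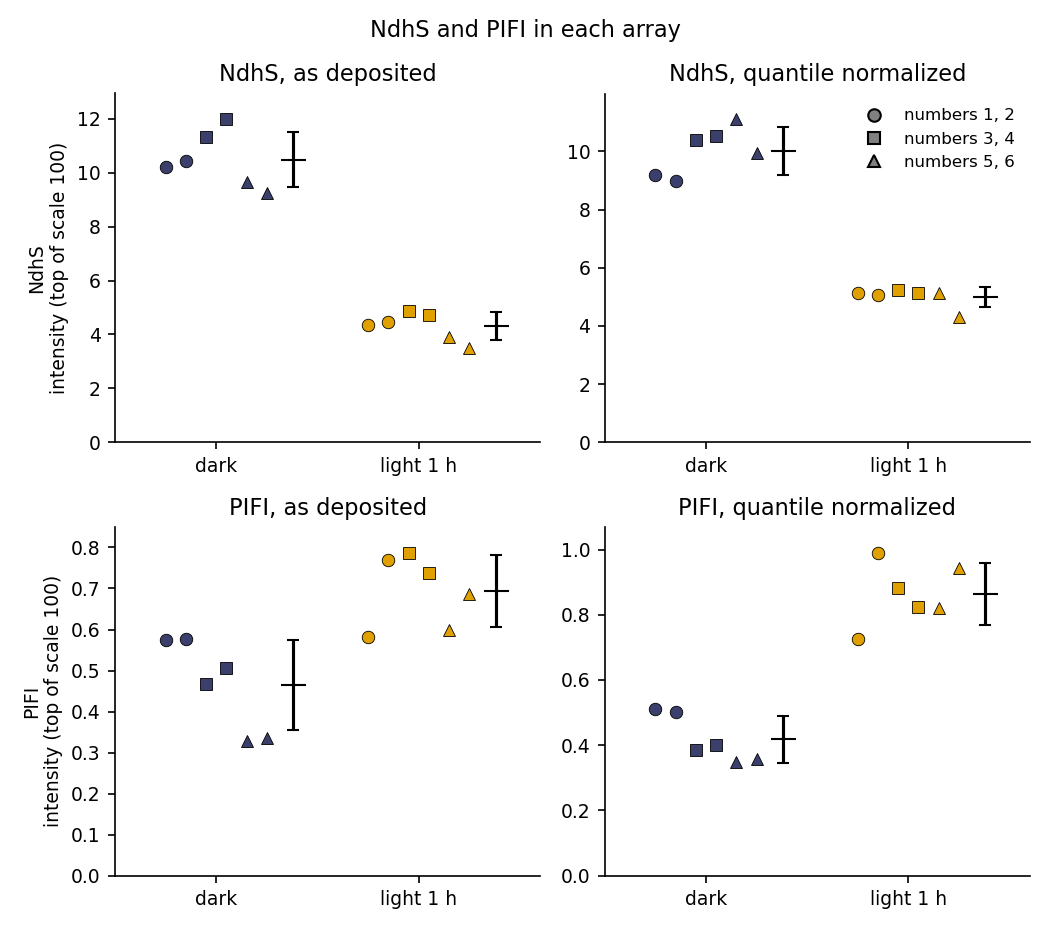
Intensity of NdhS and PIFI (y axes, linear, from 0) in each array of the dark and light groups, as deposited on the left and after quantile normalization on the right. Each point is 1 array, its shape marks consecutive replicate numbers, and the bar is the mean with the SD of 6 arrays. The scaled NdhS values run from 8.99 to 11.1 in the dark and from 4.31 to 5.24 in light, and the scaled PIFI values from 0.349 to 0.511 and from 0.727 to 0.990.

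Groups that do not overlap were common on these arrays. Among 2966 probes tested, 13.4% had every light array below every dark array, as NdhS did, and 13.2% had every light array above every dark array, as PIFI did. By limma with Benjamini-Hochberg adjustment at 0.05, 20.5% of the probes were lower and 19.9% higher in light. Both members were chosen from this contrast, so nothing is read from their place among these shares. The size of the log2 difference was at the 72.2 percentile of all probes tested for NdhS and at the 74.2 percentile for PIFI. Their mean levels were at the 98.0 and 77.5 percentiles of the probes tested.

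**Figure D2:**
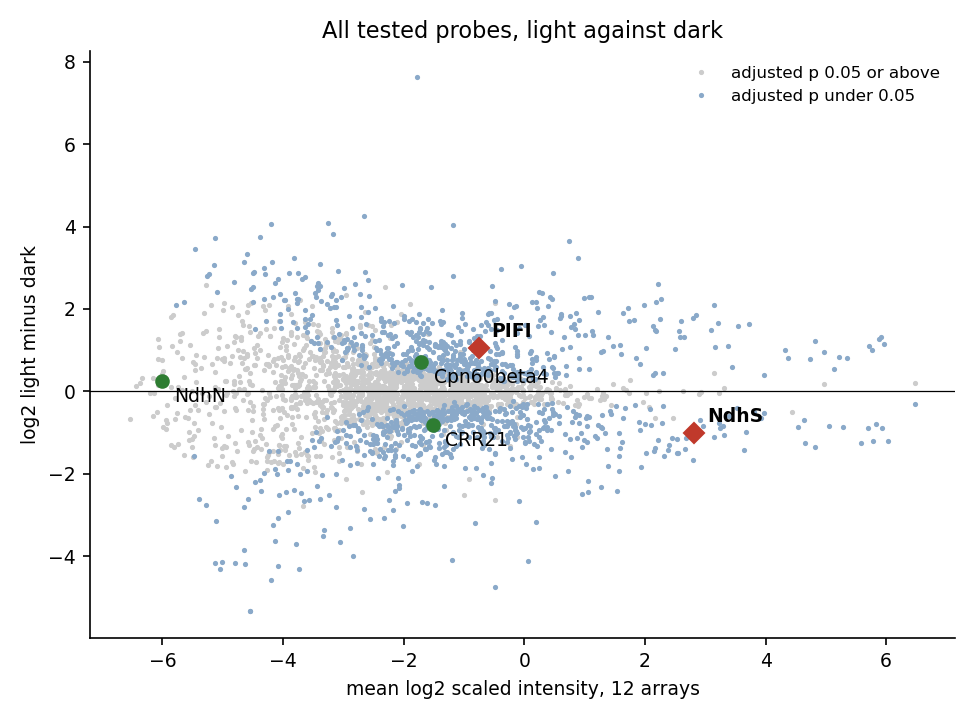
Log2 difference of light minus dark (y axis) against the mean log2 scaled intensity over 12 arrays (x axis) for the 2966 probes tested, with NdhS and PIFI as diamonds and the other 3 NDH genes tested as filled circles. NdhS, at -1.0005, lies at the 98.0 percentile of mean level and PIFI, at 1.06, at the 77.5 percentile, and many probes have larger differences in either direction.

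The size of both differences depended on how the arrays were scaled. Against quantile normalization, the deposited and the median-centred values gave a larger difference for NdhS and a smaller one for PIFI. Centring arrays on their 75th percentiles made both smaller, with log2 differences of -0.92 for NdhS and 0.97 for PIFI. Cyclic loess, another normalization, left both nearly unchanged, at -1.0009 and 1.07. In the values as deposited, the NdhS mean was 10.5 ± 1.0 (SD, n = 6) for dark arrays against 4.30 ± 0.53 (SD, n = 6) for light arrays, a log2 difference of -1.29, or 2.44-fold lower. The PIFI mean as deposited was 0.465 ± 0.111 (SD, n = 6) for dark arrays against 0.694 ± 0.087 (SD, n = 6) for light arrays, a log2 difference of 0.60, or 1.52-fold higher. The PIFI groups then nearly touched, with the highest dark value at 0.578 in replicate 2 and the lowest light value at 0.583 in replicate 1. In those deposited values the median log2 difference of all probes was -0.21, against -0.01 after quantile normalization. Relative to that median, NdhS was at -1.08 as deposited and -0.99 after quantile normalization, and PIFI was at 0.81 and 1.07. The balance of calls over the array moved as well, from 589 higher and 609 lower after quantile normalization (49.2% higher) to 423 and 879 as deposited (32.5% higher), and centring arrays on their medians gave 528 and 821 (39.1% higher). Centring on the 75th percentile tilted it the other way, to 781 and 542 (59.0% higher).

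**Figure D3:**
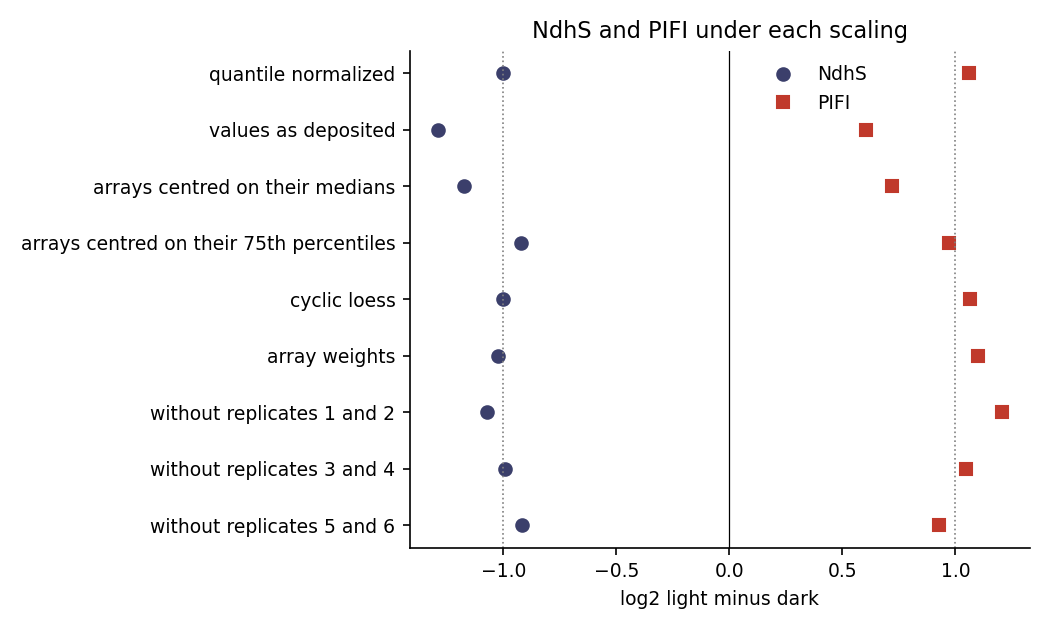
Log2 difference of light minus dark (x axis) for NdhS (circles) and PIFI (squares) under each scaling, with array weights, and without each pair of replicate numbers (y axis); dotted lines mark a 2-fold change. NdhS stays between -1.29 and -0.92 and PIFI between 0.60 and 1.20, so each gene keeps its direction in every setting drawn and lies on either side of the 2-fold line depending on the setting.

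The rank of a probe within its array needs no scaling between arrays. Quantile normalization sets each scaled value from that rank. The ranks and percentiles therefore restate the scaled result and are no separate evidence for its direction. NdhS ranked 46th to 56th from the top of 3439 probes in the dark arrays and 85th to 99th in the light arrays. Light replicate 6 placed it at rank 99 and the other light arrays at 85 to 87. PIFI ranked between 868 and 1293 in the dark arrays and between 396 and 569 in the light arrays. As a percentile of the array, NdhS went from 98.6 ± 0.1 to 97.5 ± 0.2 and PIFI from 67.9 ± 5.4 to 86.4 ± 1.8 (SD, n = 6 each).

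The ratio of NdhS to PIFI within an array is free of any factor that scales a whole array. Its size mixes the levels with the brightness of 2 different probes, and only its change between arrays is read here. In the deposited values the ratio was 17.8, 18.1, 24.2, 23.7, 29.3 and 27.5 in dark replicates 1 to 6. In the light arrays it was 7.45, 5.81, 6.21, 6.41, 6.51 and 5.07. The lowest dark ratio was above the highest light ratio. The mean log2 ratio was 4.53 ± 0.30 (SD, n = 6) in the dark and 2.63 ± 0.18 (SD, n = 6) in light, a difference of -1.89 on the log2 scale, or 3.72-fold lower in light. The directions of both genes were known when they were chosen, so this too is a description.

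**Figure D4:**
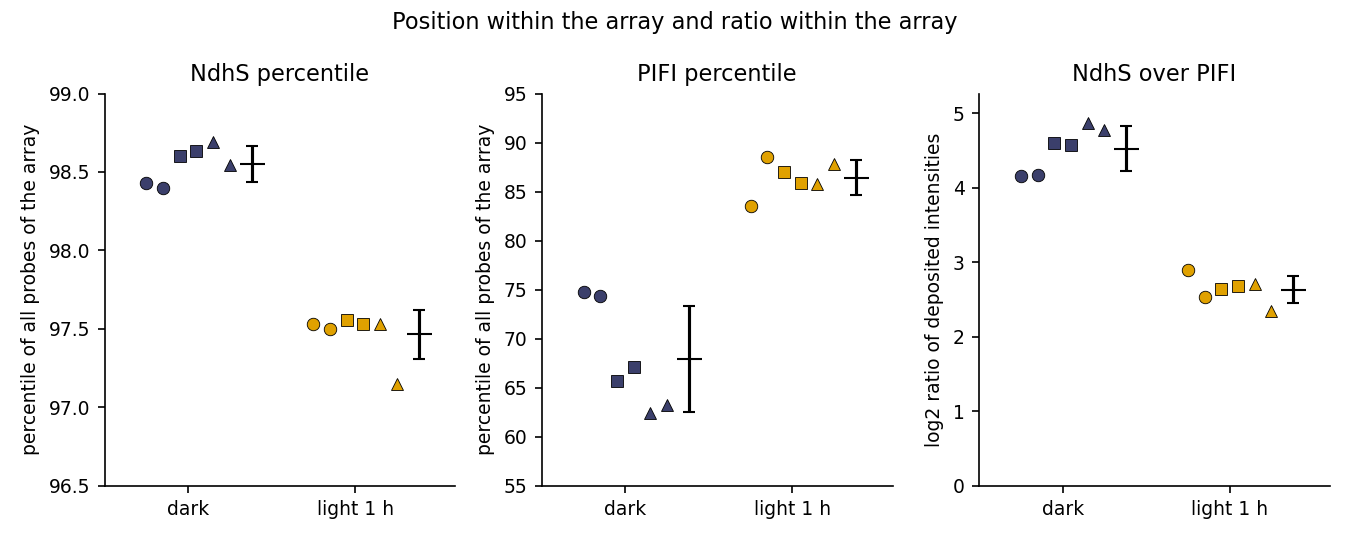
Percentile of NdhS and of PIFI among all probes of each array (left and middle, y axes not starting at 0) and log2 ratio of the deposited NdhS to PIFI intensity (right), for the dark and light arrays. Points are arrays, shapes mark consecutive replicate numbers as above, and bars are the mean with the SD of 6 arrays. The NdhS percentile is near 98.6 in the dark and 97.5 in light, the PIFI percentile near 67.9 and 86.4, and the log2 ratio near 4.53 and 2.63.

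Where the spread of each gene lay depended in part on the scaling. After quantile normalization, dark PIFI varied mainly between number pairs: the columns of a pair were at most 0.06 apart on the log2 scale, while the pair means spanned 0.52. Light PIFI did the reverse on that scale, with a gap of 0.45 between replicates 1 and 2 and pair means that spanned 0.05. For NdhS the widest gap within a pair was 0.16 in the dark and 0.25 in light, and the pair means spanned 0.21 and 0.14. In the deposited values the pair means of NdhS spanned more than the widest gap in both groups, at 0.30 against 0.08 in the dark and 0.38 against 0.17 in light. Those of light PIFI spanned 0.25 against a gap of 0.40, and those of dark PIFI 0.79 against 0.11. Taken by pair of numbers, the log2 difference of scaled NdhS was -0.83 for replicates 1 and 2, -1.01 for 3 and 4 and -1.16 for 5 and 6. That of scaled PIFI was 0.74, 1.12 and 1.32 for the same pairs. As deposited, these differences were -1.23, -1.28 and -1.36 for NdhS and 0.22, 0.65 and 0.95 for PIFI. On both scales each gene had its smallest difference in replicates 1 and 2 and its largest in replicates 5 and 6. By single number, the deposited light value of NdhS was between 0.376 and 0.431 of its dark value. That of PIFI was between 1.02 and 2.04 times its dark value, with the lowest in number 1.

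Of a list of 57 other genes of the NDH complex, its assembly, chlororespiration and the neighbouring electron carriers, few could be read on the named probes of this array. Of the 3439 probes, 1877 carry no gene name here, so listed genes without a named probe may be among them. The list holds 45 nuclear genes found in the gene table and 12 plastid loci that it does not hold. Only 4 of the 57 lie on a named probe of their own, and 3 of these were tested. A further 2 lie only on probes that list several genes and were not used. By limma with Benjamini-Hochberg adjustment over all probes, 1 of the 3 was higher in light, 1 was lower and 1 did not pass. Of all probes tested, 40.4% passed in either direction. With 3 genes the median log2 difference, 0.26, is the value of NdhN alone, which was listed at 0 in 6 arrays, and nothing is read from it against the -0.01 of all probes.

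CRR21, a pentatricopeptide repeat protein needed for editing of a plastid ndhD transcript, was lower in light. Its scaled intensity in the dark was 0.356, 0.316, 0.554, 0.550, 0.547 and 0.547 in replicates 1 to 6. In light it was 0.197, 0.162, 0.313, 0.224, 0.401 and 0.361. The groups overlapped, with dark replicates 1 and 2 below the highest light value, but the light array was below the dark array of the same number in 6 of 6. CRR21 fell from 0.478 ± 0.111 to 0.276 ± 0.096 (SD, n = 6 each), with a log2 difference of -0.83 (SE 0.25, limma, adjusted p = 0.020). Cpn60beta4, a plastid chaperonin subunit needed for folding of the NdhH subunit, was higher in light. Its scaled intensity in the dark was 0.314, 0.232, 0.239, 0.139, 0.276 and 0.279 in replicates 1 to 6. In light it was 0.414, 0.348, 0.394, 0.296, 0.407 and 0.535. The groups overlapped between light replicate 4 and dark replicate 1, and the light array was above the dark array of the same number in 6 of 6. The share of all probes with such a count was not taken. The pairing of dark and light arrays by number is not given by the labels, and consecutive numbers may be repeats. Nothing is therefore read from the counts by number for CRR21 or Cpn60beta4. Cpn60beta4 rose from 0.247 ± 0.061 to 0.399 ± 0.080 (SD, n = 6 each), with a log2 difference of 0.72 (SE 0.20, limma, adjusted p = 0.014).

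Both calls were lost when the columns of consecutive numbers were averaged to 3 values a group, at an adjusted p of 0.13 for CRR21 and 0.068 for Cpn60beta4 in limma, a setting in which 27.4% of all probes passed. CRR21 was also lost without replicates 3 and 4 (limma, adjusted p = 0.17), and Cpn60beta4 without replicates 1 and 2 (limma, adjusted p = 0.053) or 5 and 6 (limma, adjusted p = 0.086). Fewer of all probes were called in these settings too. They were 439 higher and 456 lower without replicates 3 and 4, against 589 and 609 with all arrays. Without replicates 1 and 2 they were 490 and 520, and without 5 and 6 they were 427 and 429. Over all 27 alternatives the adjusted p ran from 0.0029 to 0.17 for CRR21 and from 0.0037 to 0.086 for Cpn60beta4.

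NdhN, a stromal subunit of the same complex as NdhS, was at the dim end of the array and did not pass. It was listed at 0 in 3 dark and 3 light arrays, and its deposited value was otherwise between 0.0081 and 0.154, the highest being light replicate 2. Its log2 difference was 0.26 (SE 0.84, limma, adjusted p = 0.84), and the zeros leave its direction unread. CRR41, an assembly factor of the complex, was listed at 0 in all 12 arrays and was not tested. NdhS was thus the only listed subunit of the complex on a named probe of its own that was above 0 in every array. No statement on the complex as a whole can be made from it.

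**Figure D5:**
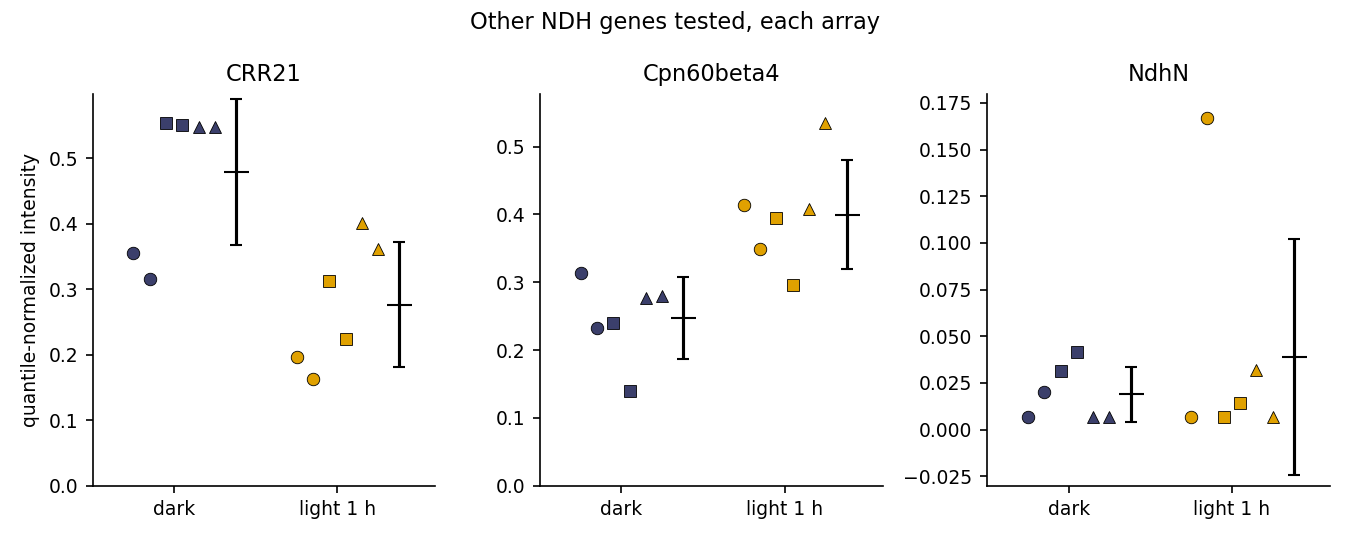
Scaled intensity (y axes, linear) of CRR21, Cpn60beta4 and NdhN in each array of the dark and light groups, with shapes for consecutive replicate numbers and bars for the mean with the SD of 6 arrays. CRR21 is lower and Cpn60beta4 higher in light with overlapping groups, at means of 0.478 and 0.276 and of 0.247 and 0.399, while NdhN lies near 0 apart from light replicate 2 at 0.167.

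The genes whose pattern was most like each member were taken by Pearson's r of log2 scaled intensity over the 12 arrays, among 489 other single-gene probes that were never at the floor. Such an r is set mostly by the light and dark difference that the arrays share, and 26 of the 489 had an r above 0.9 with NdhS and 20 with PIFI. An r below -0.9 was found for 28 probes with NdhS and 19 with PIFI, and the r between NdhS and PIFI was -0.97. Most like NdhS were AT3G04650 (r = 0.98), AT2G39360 (r = 0.97), AT4G31530 (r = 0.97), AT1G51350 (r = 0.96) and AT3G04210 (r = 0.95). AT3G04650 had dark and light means of 2.99 ± 0.30 and 1.32 ± 0.10 (SD, n = 6 each), and AT4G31530, the brightest of the 5, at 52.6 ± 1.5 and 28.9 ± 0.6. Their log2 differences ran from -1.82 to -0.86, on both sides of that of NdhS.

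Most like PIFI were AT5G53920 (r = 0.96), AT3G06570 (r = 0.96), AT5G36470 (r = 0.95), AT5G14590 (r = 0.95) and AT3G47650 (r = 0.95). AT5G53920 had dark and light means of 0.446 ± 0.087 and 1.23 ± 0.11 (SD, n = 6 each), and AT3G06570 at 2.74 ± 0.25 and 7.55 ± 0.78. The log2 differences of these 5 ran from 0.55 to 2.07. Within the 6 dark arrays alone, where the light and dark difference plays no part, the r with PIFI ran from 0.48 to 0.96, and within the 6 light arrays from -0.43 to 0.17. For the 5 genes most like NdhS, the r with NdhS ran from -0.63 to 0.78 within the dark arrays and from -0.56 to 0.85 within the light arrays. All these genes were picked by an r that includes the same arrays, so the choice itself can favour a high r within a group. Dark PIFI also varied mainly between number pairs, so its r rests on few separate levels. No likeness apart from the light and dark difference is read from these values. With Spearman's rho in place of Pearson's r, 1 of these 10 genes was again among the 5 most alike, and with the values as deposited 5 were, so the order among many similar probes carries little weight.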

How the data were processed

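The authors deposited 1 linear intensity per probe and array, with a top of 100. How they scanned, corrected and scaled the arrays, and the genome build behind the probes, are not given in the sources used here. Coordinates are therefore left out. Probes were named from an old platform annotation, updated through gene identifiers to the TAIR10.1 gene table, with 690 of 692 single-gene probes matched. A further 870 probes list several genes and 1877 are not named here.

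Arrays were quantile normalized, a floor was set at the 1% quantile of positive values (0.0067), and values were put on a log2 scale. The 473 probes that reached this floor in more than 6 arrays were dropped, leaving 2966. Light and dark were compared in limma 3.58.1 under R 4.3.3 (lmFit, eBayes, two-sided, Benjamini-Hochberg over the probes tested, threshold 0.05). Only the limma comparison was tried on simulated data, drawn as log2 values of independent arrays. That trial covered neither the normalization, floor and filter nor the likeness of consecutive arrays. Figures were drawn with matplotlib 3.10.9. The number of arrays limits the precision.

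The members, the list of 57 genes and the tests were chosen with earlier results of these data known. Genes named are the members, list genes on a tested probe of their own (CRR41 is named as well, though it was not tested), and the 5 most like each member. Groups and replicate numbers came from the labels. After group means were removed, the dark and light arrays of 1 number correlated at 0.301 to 0.557 over the brighter probes, and each of 6 dark arrays correlated best with its own number. This pairing comes from the values and not from the labels. Alternatives covered scaling, floor, filter, replicate block, averaging of consecutive numbers, array weights, eBayes settings and leaving out arrays.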

Additional observations from a re-analysis of the deposited data

Results flagged for a closer look

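Of 30 sets of 6 values checked, 3 held an array set apart by a gap that took up most of its group's range. Chance gives this in about 1 set in 20 for normal values without ties. Some of the sets hold tied values, so that rate is no guide for them. On the log2 scale, light replicate 6 gave 2.11 for NdhS, where the other light arrays had a median of 2.36. Light replicates 1, 4 and 5 held identical scaled values of NdhS, all at rank 86. As deposited, light replicate 6 was at 3.48, the next lowest light array at 3.90 and the highest at 4.89, so replicate 6 stood less apart. Cpn60beta4 in dark replicate 4 was at -2.85 against -1.86, and without that array its log2 difference was 0.55 in place of 0.72 and still passed (limma, adjusted p = 0.016). AT4G31530 in dark replicate 5 was at 5.63 against 5.74. The other 5 dark arrays held identical scaled values of AT4G31530, which quantile normalization gives to probes of equal rank, so that a small step in rank was enough to set this array apart.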

How the results depend on the processing

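NdhS was lower and PIFI higher in light in all 27 alternatives, with log2 differences from -1.29 to -0.92 and from 0.60 to 1.20. They moved by more than the spread between arrays as deposited (-1.29 and 0.60) and with arrays centred on their medians (-1.17 and 0.72). Leaving out 1 array at a time gave -1.04 to -0.95 for NdhS and 1.002 to 1.12 for PIFI. The log2 ratio of NdhS to PIFI changed by -2.28 to -1.85 over the 27. Counting percentiles among positive values only, the shift of NdhS was -1.24 percentile points in place of -1.09. Calls over all probes ran from 406 to 781 higher and from 408 to 879 lower, the lowest with consecutive numbers averaged, and the balance tilted to higher with 75th percentile centring and to lower as deposited. With the replicate block, 641 probes were higher and 673 lower, and the block changed no call of the 3 NDH genes tested. Of the NDH genes listed, 0 were called higher with consecutive numbers averaged, without replicates 1 and 2 and without 5 and 6. The count called lower was 0 with consecutive numbers averaged and without replicates 3 and 4. Calls over all probes fell in the same settings, from 589 higher and 609 lower of 2966. They were 406 and 408 of 2966 with consecutive numbers averaged, and 490 and 520 of 2998 without replicates 1 and 2. Without replicates 3 and 4 they were 439 and 456 of 2958, and without 5 and 6 they were 427 and 429 of 2986. With at most 3 NDH genes tested, nothing is read from these counts of 0. Each of these fits holds fewer values per group, either as means of consecutive numbers or with a number pair left out. Why the calls were lost was not tested. NdhN is at 0 in 6 arrays, the most that the filter on dim probes allows, and that filter left it out of the other alternatives. It turned to -0.29 without replicates 1 and 2 and to -0.13 without 5 and 6. In none of its 17 alternatives did it pass, and the cause of the turn was not tested.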
